A study of Drosophila melanogaster with 8 samples.

Results

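The genes described here are those listed under a CR symbol, the prefix that FlyBase gave to computed transcripts without a recognised protein product, in gene-level RNA-seq tables of Drosophila melanogaster testes and second instar larvae. Every row whose symbol is CR followed by a number was taken, whatever its value, and rows of the 2 tables were joined by FlyBase gene identifier. This gave 2096 CR genes among 15612 genes of the testis table and 2253 among 15735 named genes of the larval table. Together the tables hold 2504 CR genes among 17122 genes. A total of 1845 were a CR gene in both tables, 246 had a row in the testis table only and 399 in the larval table only, and the remaining few stood under another symbol in the other table. Genes with a CG symbol, mostly protein-coding, are given beside them (7080 in testes and 6365 in larvae).

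The symbol is not a full guide to coding status. Of the 2086 CR genes of the testis table that were found in the Ensembl annotation of the BDGP6.54 assembly, 1929 were annotated as noncoding RNA, 148 as pseudogenes and 9 as protein-coding. The larval table was alike, with 2046 noncoding RNAs, 191 pseudogenes and 10 protein-coding genes of 2247 found.

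The 8 libraries form 4 groups of 2. The tgs1hypo testes came from adult males with the genotype bam>moi;tgs1hypo, in which a moi cDNA driven by bam, a germline differentiation gene, did not rescue the mutation. The WT testes carried the same tgs1hypo combination, moi CB0 over tgs1 15-11, with a tgs1 cDNA driven by bam that rescued it (bam>tgs1;tgs1hypo), so this control is a rescued mutant according to its labels. The study's text describes the same comparison as wild type against tgs1hypo. Which flies were sequenced could not be settled, and every testis contrast here is either mutant against rescued mutant or mutant against wild type. The tgs1KO larvae carried tgs1 2-3, a CRISPR/Cas9 frameshift, and the WT larvae tgs1 2-4, an allele of the same origin with both reading frames intact. RNA came from about 100 testes by the labels, or 100 pairs of testes by the study's methods, or from 80 whole second instar larvae, and was selected for poly(A) tails, so RNAs without a tail are under-represented. No source says that replicates were separate collections, so p-values measure the spread between these libraries, which may be technical.

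Long noncoding RNAs are transcribed by RNA polymerase II, usually capped, often spliced and polyadenylated, and many are expressed in a single tissue. The testis is known in flies and mammals for transcribing more of them than other tissues do. Tgs1 adds 2 methyl groups to the cap of spliceosomal snRNAs and of some other small RNAs, giving the trimethylguanosine cap, and shares a bicistronic transcript with the telomere-capping gene moi. The study asked what partial or complete loss of Tgs1 does to splicing and gene expression. Most of the CR genes named below have no known function, and where a role can be given it is that of the neighbouring protein-coding gene.

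Splicing of some CR genes is part of this question, since the readable part of the study's list of introns retained in tgs1hypo testes holds 89 introns in 79 CR genes. The splice sites are shown for 4 of the CR genes on that list, 2 with a large fall and 2 among the most abundant in testes. Each donor window has the last 3 exon bases and the first 6 intron bases, each acceptor window the last 20 intron bases and the first 3 exon bases, and capitals mark the bases at the intron's ends.
CR44308 donor: caaGTaagc
CR44308 acceptor: attagtttctccttcaaaAGgaa
CR43433 donor: tggGTgagt
CR43433 acceptor: gccgaagcctctgcaagtAGatt
CR32657 donor: ttgGTaagc
CR32657 acceptor: tacaacatttgtatttctAGagt
CR32658 donor: ttgGTaagt
CR32658 second donor: cttGTaagc
CR32658 acceptor: gaatatacagattcttgtAGata

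All of these introns are annotated and start with GT and end with AG. The CR44308 intron lies at chr2L:3538005-3538067 on the plus strand and has 63 bases, and the CR43433 intron at chr3L:17167046-17167109 on the plus strand has 64. The CR32657 intron spans chrX:12087277-12087350 (74 bases), and CR32658 has 2 listed introns that end at the same acceptor and start at chrX 12091493 and 12091519, both genes on the plus strand. Over the 89 introns, 84 started with GT and 88 ended with AG, and the median length was 63 bases (42 to 2913).

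The data are FPKM, fragment numbers scaled by transcript length and sequencing depth, so a change was measured on the scale of log2(FPKM + 1) and understates the change of low genes. Within a tissue, the genes tested with limma were those whose 4 libraries averaged 1 FPKM or more. A gene was called at an adjusted p under 0.05, by the Benjamini-Hochberg method over all genes tested in that tissue, and a log2 change of at least 1 in either direction. The number of reads behind a value is not given. The product of a low value and the gene's exonic length piled up at 61.8 to 66.3 in testes and 35.5 to 38.1 in larvae. If that step is 1 fragment, a gene of 600 bases at 1 FPKM rests on 9.06 to 9.71 fragments in testes and 15.8 to 16.9 in larvae.

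Replicate libraries correlated across genes at r = 0.990 (tgs1hypo) and 0.994 (WT) in testes, above the 0.942 to 0.950 between genotypes. In larvae the replicates (0.953 in tgs1KO and 0.929 in WT) were no closer than libraries of different genotype (0.931 to 0.953). The tables have no tgs1 row. The moi row covers the shared transcript (chr3R:18255530-18257677) and had 3.81 and 2.71 FPKM in tgs1hypo testes, against 10.1 and 11.4 in WT testes (log2 change −1.47, limma adjusted p = 0.000389), which does not tell which cDNA a library carried. It had 6.41 and 6.85 FPKM in tgs1KO larvae and 4.64 and 7.42 in WT larvae (log2 change 0.15, adjusted p = 0.802). All 7 testis germline markers were above 1 FPKM in testes, with sums of 4481 and 4384 FPKM in tgs1hypo testes and 4345 and 4757 in WT testes. Within that list aly (log2 change 0.82), fzo (0.58) and betaTub85D (0.33) were higher and can (−0.91) and dj (−0.80) lower at an adjusted p under 0.05 in limma, all short of a log2 change of 1, while bam (0.08) and Mst98Ca (−0.11) did not pass.

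CR genes were far more often expressed in testes than in larvae. A mean of 1 FPKM over the 4 libraries was reached by 1005 of 2096 CR genes in testes (47.9%) and by 315 of 2253 in larvae (14.0%). Among CG genes the shares were 75.4% in testes (5335 of 7080) and 62.5% in larvae (3978 of 6365). A mean of 10 FPKM was reached by 245 CR genes in testes and 50 in larvae, and 100 FPKM by 23 and 8. The median CR gene stood at 0.908 FPKM in testes and 0.0677 FPKM in larvae, where 332 CR genes and 96 CG genes were listed at 0 in every library. The testis table held 0 CR genes and 0 CG genes of this kind. The shares and medians of the 2 tissues thus rest on lists that differ in unexpressed genes. These levels come from tables that were normalized separately and that differ in which overlapping genes have a row, so levels set across them are descriptions.

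As a share of all FPKM, CR genes took 1.87% and 1.89% in tgs1hypo testes and 2.20% and 2.34% in WT testes, so the tgs1hypo libraries were both below the WT libraries. In larvae the shares were 1.0% and 1.26% in tgs1KO and 0.738% and 0.912% in WT, again without overlap but in the other direction. Without the most abundant larval gene, CR10102, the CR sums were 4735 and 4767 FPKM in tgs1KO larvae and 3942 and 4939 FPKM in WT larvae, and the groups overlapped. The CR genes nearest the limit of 1 FPKM in testes were CR43944 and CR45584 just inside and CR43995 and CR45197 just outside, and in larvae CR44977 and CR45918 inside and CR45620 and CR45384 outside.

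The most abundant CR genes of the testis were a different set from those of the larva. CR43684, an intronless gene inside an intron of the synaptotagmin gene Sytbeta, led in testes with 1261 and 1327 FPKM in tgs1hypo and 851 and 975 FPKM in WT. Both tgs1hypo libraries were above both WT libraries, but the log2 change of 0.51 ± 0.08 (SE) was below the size limit (adjusted p = 0.0023). CR9284 had 929 and 1023 FPKM in tgs1hypo testes and 941 and 984 FPKM in WT testes, and its groups overlapped (log2 change 0.02 ± 0.07, adjusted p = 0.838). CR44455, close to the glycerol-3-phosphate dehydrogenase gene Gpdh2, had 892 and 823 FPKM in tgs1hypo testes, against 499 and 556 FPKM in WT testes (log2 change 0.70 ± 0.08, adjusted p = 0.00041).

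The pair CR32657 and CR32658 lies inside an intron of the teneurin gene Ten-a on the X chromosome, and both were called lower. CR32657 had 367.7 and 392.2 FPKM in tgs1hypo testes and 848 and 990 FPKM in WT testes (log2 change −1.27 ± 0.09, adjusted p = 6.6e-05). CR32658 had 376 and 374 FPKM in tgs1hypo testes and 877 and 964 FPKM in WT testes (log2 change −1.29 ± 0.07, adjusted p = 2.7e-05). Their levels were close in every testis library, and whether the 2 genes share reads was not tested, since no sequence of the whole genes was at hand. In larvae both were under 4 FPKM in every library.

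**Figure D1:**
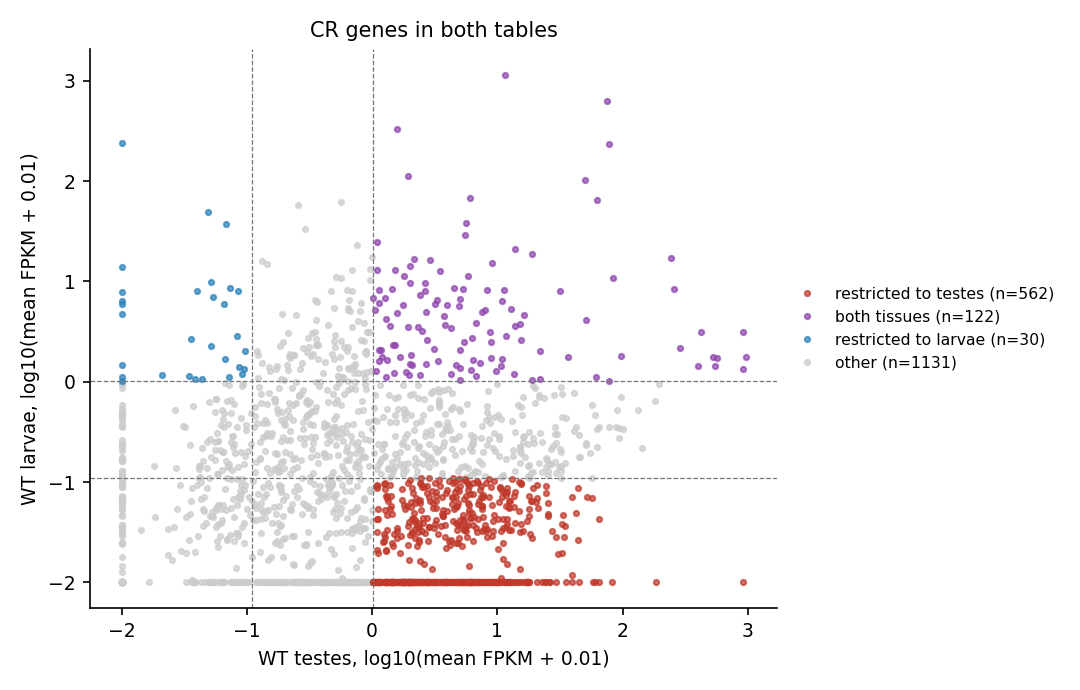
Mean FPKM of each CR gene with a row in both tables, in WT testes (horizontal) and WT larvae (vertical), on a log10 scale after adding 0.01, with dashed lines at 0.1 and 1 FPKM. The 562 genes restricted to testes fill the lower right, against 30 restricted to larvae at the upper left and 122 at 1 FPKM or more in both, and genes listed at 0 lie on the line at −2.

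Tissue restriction was read from the WT libraries of the 1845 CR genes in both tables. The libraries are of adult testes and whole larvae, so organ and stage cannot be told apart. The testis libraries also held accessory gland RNA, with marker sums of 1971 and 1757 FPKM in WT. Restricted to testes thus means only that an RNA was in those libraries and nearly absent from whole larvae. A gene was restricted where its mean was at least 1 FPKM in 1 tissue and under 0.1 FPKM in the other. By this measure 562 CR genes (30.5%) were restricted to testes and 30 (1.63%) to larvae, and 122 (6.61%) reached 1 FPKM in both. A further 265 reached it in testes and were between the limits in larvae, 105 did so in larvae, and 761 (41.2%) reached it in neither. Of 6096 CG genes, 436 (7.15%) were restricted to testes, 254 (4.17%) to larvae and 2950 (48.4%) were expressed in both. The testis rows held 0 CR or CG genes listed at 0 in every library. Genes silent in all testis libraries thus could not be counted as restricted to larvae, which lowers those counts. Among CR genes with a mean of 1 FPKM over the 4 libraries, 46 in larvae and 94 in testes were not in both tables. Their restriction was not tested.

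The 5 highest of the testis-restricted CR genes were CR43684, CR45013, CR44493, CR43304 and CR43437. CR45013, antisense to the phosphodiesterase gene Pde1c, had 108 and 83.4 FPKM in tgs1hypo testes and 207 and 161 FPKM in WT testes. CR44493 had 34.9 and 41.4 FPKM in tgs1hypo testes and 74.1 and 92.0 FPKM in WT testes (log2 change −1.10, adjusted p = 0.00042), and its size fell just short of the limit without tgs1hypo replicate 1 (−0.98) or WT replicate 2 (−0.95). CR43304 had 25.8 and 25.5 FPKM in tgs1hypo testes and 59.5 and 70.8 FPKM in WT testes (log2 change −1.31, adjusted p = 7.8e-05). CR43437, on the small chromosome 4, had 38.3 and 41.4 FPKM in tgs1hypo testes and 61.6 and 67.0 FPKM in WT testes (log2 change −0.68). For all of these but CR43684 both tgs1hypo libraries were below both WT libraries. In larvae all 5 were under 0.11 FPKM or listed at 0 in every library.

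The 4 highest larva-restricted CR genes all share exons with a protein-coding gene on the same strand that has no larval row of its own. CR45040 had 331 and 230 FPKM in tgs1KO larvae and 272 and 209 FPKM in WT larvae, and lies within the Kazal-type protease inhibitor gene Kaz-m1. CR43900, with 56.7 and 73.0 FPKM in tgs1KO larvae and 58.3 and 40.8 FPKM in WT larvae, starts within the calmodulin gene Cam. CR43836 (45.8 and 34.7 FPKM in tgs1KO, 27.2 and 48.1 in WT) shares exons with CG10962 and CR44320 (19.2 and 17.8 FPKM in tgs1KO, 15.9 and 12.1 in WT) with CG12290. The fifth, CR45553, had 17.9 and 12.6 FPKM in tgs1KO larvae and 8.78 and 10.9 FPKM in WT larvae and ends 230 bases before tropomodulin (tmod), which has no larval row either.

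This pattern held across the larval table. Each CR gene was given 1 protein-coding partner in the annotation, the gene it shares exons with, the gene whose intron it touches, or else the nearest. Of the 51 CR genes at 1 FPKM or more in larvae that share exons with a partner on the same strand, 0 had a partner with a larval row, against 24 of 25 with a testis row in the testis table. Over all 313 such larval CR genes with a partner, 99 (31.6%) had a partner without a row, whereas 9.35% of all protein-coding genes had none. In the testis table the shares were 4.10% and 5.71%. The larval values of those 99 genes therefore cannot be told apart from the transcription of the partner. In a choice made after the values were seen, only CR genes whose partner has a larval row were kept, whatever their level. Of these, 214 CR genes reached 1 FPKM in larvae. By the same choice 18 of the 30 remained restricted to larvae and 521 of the 562 to testes.

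Of the 5 highest CR genes of the larva, 3 share exons with a protein-coding gene on the same strand that has no larval row. CR42491 shares exons with the ribosomal protein gene RpL22 and had 1219 and 983 FPKM in tgs1KO larvae and 887 and 1413 FPKM in WT larvae, but 17.9 and 22.5 FPKM in tgs1hypo testes and 11.3 and 11.8 FPKM in WT testes, where RpL22 has a row of its own. CR42862, which shares exons with CG33229, and CR45040 are the others with exons in common. CR45874 is antisense to the ribosomal protein gene RpS9, which does have a larval row, and had 303 and 362 FPKM in tgs1KO larvae and 331 and 325 FPKM in WT larvae.

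In testes the CR genes fell more often than other genes did. Of the 1005 tested, 251 (25.0%) were called lower in tgs1hypo and 43 (4.28%) higher, while over all 11343 genes tested 7.11% were called lower and 3.54% higher. Of 5335 CG genes, 363 (6.80%) were lower and 206 (3.86%) higher. The median log2 change was −0.39 for CR genes, with quartiles of −1.0 and 0.14, against 0.10 for CG genes and 0.11 for all genes tested. Both tgs1hypo libraries were below both WT libraries for 564 CR genes (56.1%), where 32.6% of all genes tested showed this order. The counts are of CR genes that passed the filter on level, and 178 passed with a mean under 1 FPKM in tgs1hypo and at least 1 in WT, 40 the other way round, so part of the low CR genes entered through the group in which they were high.

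The level of CR genes is lower than that of CG genes, so the shares were set side by side within classes of mean FPKM. Between 1 and 2 FPKM, 57 of 283 CR genes (20.1%) and 27 of 459 CG genes (5.88%) were called lower. Between 2 and 5 FPKM the shares were 31.5% of 295 CR genes and 5.65% of 797 CG genes, and between 5 and 10 FPKM 22% of 182 and 6.39% of 782. From 10 to 50 FPKM they were 25.9% of 197 CR genes and 7.30% of 1725 CG genes, and from 50 FPKM up 20.8% of 48 and 7.32% of 1572. With the CG genes weighted to the CR genes' spread over these classes, 6.25% of CG genes were lower and 3.47% higher, and the CG median was 0.06, which left the CR median 0.45 below it on the log2 scale. Without the filter on level, over all 2096 CR genes, the CR median was −0.10 and the difference −0.12, and 277 CR genes were called lower and 44 higher.

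**Figure D2:**
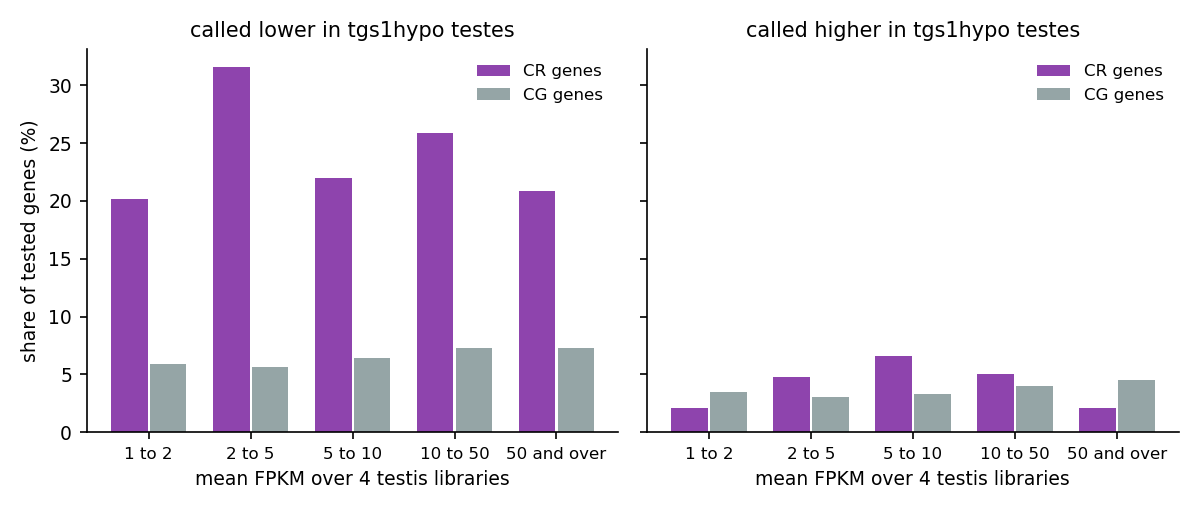
Share of tested CR genes (purple) and CG genes (grey) called lower (left) and higher (right) in tgs1hypo testes, by mean FPKM over the 4 testis libraries. The CR bar is the taller of the pair in every class at left, from 20.1% to 31.5% against 5.65% to 7.32%, while at right all bars lie under 7%.

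Of the 251 CR genes called lower, 54 fell by 2 or more and 10 by 3 or more on the log2 scale. Of the 363 CG genes called lower, 76 and 11 did so. The median log2 change of the genes called lower was alike, −1.46 for CR genes and −1.47 for CG genes. The CR genes called lower had a median level of 1.36 FPKM in tgs1hypo and 6.32 FPKM in WT, and 104 of them were under 1 FPKM in tgs1hypo. Of the 43 CR genes called higher, 6 rose by 2 or more, and of the 206 CG genes called higher, 8 did. Fewer cells of a type and less RNA per cell cannot be told apart in these bulk libraries.

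Markers of other tissues moved with the genotype too. The 4 accessory gland genes summed to 1148 and 1164 FPKM in tgs1hypo testes and 1971 and 1757 FPKM in WT testes, with 0 of 4 called. The 3 muscle genes summed to 93.8 and 113 FPKM in tgs1hypo testes and 208 and 198 FPKM in WT testes, with Act57B called lower. The cyst and hub list summed to 45.7 and 47.8 FPKM in tgs1hypo and 51.0 and 48.0 FPKM in WT, with os (also named upd1), a ligand made by the hub, called lower (2.63 and 2.45 FPKM against 9.05 and 9.13 FPKM in WT). In the same list the cyst cell gene eya had 23.3 and 25.9 FPKM in tgs1hypo testes and 16.1 and 15.2 FPKM in WT testes (log2 change 0.62), and tj had 1.09 and 1.23 FPKM in tgs1hypo testes and 0.810 and 0.766 FPKM in WT testes. The fat body list stayed under 2 FPKM in every testis library. The part of these tissues in the CR result was not tested.

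The 8 largest falls were of RNAs that WT testes held at 7 FPKM or more. Genes of low level cannot fall this far on the log2(FPKM + 1) scale, so the ranking itself asks for such a level. In 5 of the 8 genes the tgs1hypo libraries were under 1 FPKM, and CR43810, CR45202 and CR44308 kept a mean of 2.44, 2.26 and 2.34 FPKM. CR44105, an intronless gene on chromosome arm 2R (5031995 to 5032795), had 0.198 and 0.0700 FPKM in tgs1hypo testes, against 17.6 and 17.8 FPKM in WT testes (log2 change −4.05 ± 0.14, adjusted p = 1.0e-05). CR43810, inside an intron of the cuticle protein gene Cpr50Ca, had 1.61 and 3.27 FPKM in tgs1hypo testes and 39.7 and 49.8 FPKM in WT testes (log2 change −3.77 ± 0.24, adjusted p = 4.9e-05). Groups that do not overlap were part of the rule that picked these genes.

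CR45202 is antisense to Sec31, which encodes a coat protein of vesicles leaving the endoplasmic reticulum. It had 2.34 and 2.18 FPKM in tgs1hypo testes and 29.6 and 37.4 FPKM in WT testes (log2 change −3.39, adjusted p = 1.5e-05), whereas Sec31 itself changed by −0.27 and was not called. CR44308, 914 bases from the zinc finger gene drumstick (drm), had 2.54 and 2.15 FPKM in tgs1hypo testes and 29.5 and 35.3 FPKM in WT testes (log2 change −3.32, adjusted p = 1.4e-05). CR43433, antisense to the RNA-binding protein gene Rbp6, had 0.325 and 0.0848 FPKM in tgs1hypo testes and 9.21 and 9.04 FPKM in WT testes (log2 change −3.08, adjusted p = 2.7e-05), and Rbp6 changed by 0.11. CR44308 and CR43433 are among the genes whose splice sites are printed above, and CR43810 and CR45202 also have an intron on the study's list.

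CR44777 (2L, 6358345 to 6359994) had 0.391 and 0.379 FPKM in tgs1hypo testes and 10.4 and 13.4 FPKM in WT testes (log2 change −3.21, adjusted p = 2.6e-05). It lies 27 bases from CG9500 on the same strand, and that gene was also called lower (log2 change −2.52). CR44920 had 0.538 and 0.891 FPKM in tgs1hypo testes and 11.8 and 17.8 FPKM in WT testes (log2 change −3.19, adjusted p = 6.3e-05), with its nearest gene, CG11629, at −0.08. CR43849, inside an intron of pxb, had 0.0851 FPKM in 1 tgs1hypo library and was listed at 0 in the other, against 7.67 and 8.18 FPKM in WT testes (log2 change −3.10, adjusted p = 2.2e-05). In larvae all 8 of these genes were under 0.31 FPKM or listed at 0 in every library.

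The 8 largest rises were all of intronless genes but for CR44584, and 612 of the 1005 CR genes tested were intronless too. CR43734, a pseudogene of 322 bases 13 bases from borr, which encodes a chromosomal passenger protein of cell division, had 14.1 and 10.5 FPKM in tgs1hypo testes, against 0.195 and 0.440 FPKM in WT testes (log2 change 3.33 ± 0.19, adjusted p = 3.3e-05). CR45957 had 17.6 and 15.0 FPKM in tgs1hypo testes and 2.59 and 3.22 FPKM in WT testes (log2 change 2.15, adjusted p = 6.0e-05). CR43465, antisense to the mitochondrial carrier gene Ucp4B, had 20.7 and 21.4 FPKM in tgs1hypo testes and 3.61 and 4.46 FPKM in WT testes (log2 change 2.14, adjusted p = 3.7e-05). Ucp4B itself was lower by 0.73 on the log2 scale, short of a call.

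CR44157, inside an intron of smash, had 29.7 and 29.2 FPKM in tgs1hypo testes and 5.17 and 7.39 FPKM in WT testes (log2 change 2.08, adjusted p = 8.1e-05). CR45744 lies 25 bases from the transcription factor gene Prdm13 on the opposite strand and had 8.24 and 6.15 FPKM in tgs1hypo testes and 1.56 and 0.432 FPKM in WT testes (log2 change 2.08, adjusted p = 0.000996). Prdm13 was called higher too, with a log2 change of 2.69. CR45210, antisense to nes, had 5.38 and 5.01 FPKM in tgs1hypo testes and 0.453 and 0.810 FPKM in WT testes (log2 change 1.93, adjusted p = 0.00017).

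CR44584 and CR44585 are neighbours on chromosome arm 2L, between positions 11331889 and 11338920. CR44584 had 3.51 and 2.11 FPKM in tgs1hypo testes and was listed at 0 in both WT libraries, so no fold is given. CR44585 had 3.41 and 5.16 FPKM in tgs1hypo testes and 0 and 0.422 FPKM in WT testes. Their nearest protein-coding gene, CG14926, was called lower (log2 change −2.28), the opposite direction on the same strand.

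**Figure D3:**
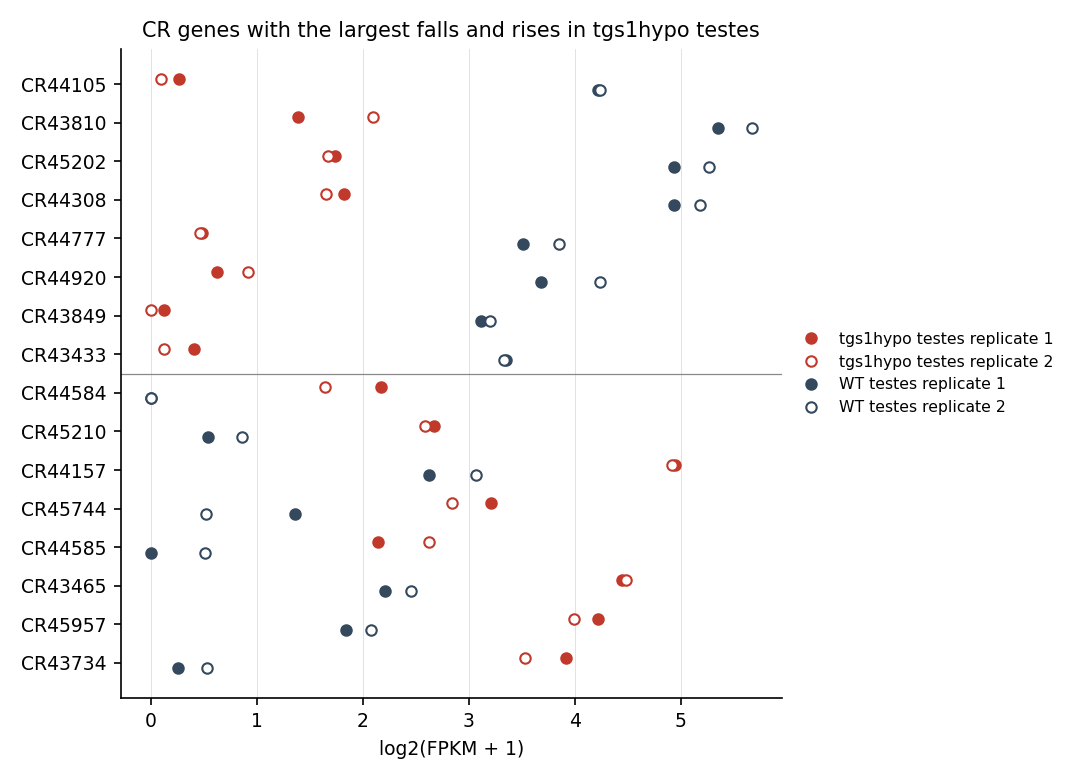
Level of the 8 CR genes with the largest falls (above the line) and the 8 with the largest rises (below it) in tgs1hypo testes, as log2(FPKM + 1), with tgs1hypo libraries in red above WT libraries in dark blue and replicate 2 as open circles. The rule that picked the 16 genes asked for groups that do not overlap. The levels run from 0.198 and 0.0700 FPKM against 17.6 and 17.8 FPKM in CR44105 to 14.1 and 10.5 FPKM against 0.195 and 0.440 FPKM in CR43734.

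Some called CR genes lay near each other. Within 10 kb of each other on a chromosome, 36 of the 293 called CR genes with a position formed 18 pairs. Of these pairs 12 were lower in both members, 1 higher in both and 5 mixed. Most called CR genes were lower (251, against 43 higher), and whether the pairs exceed what such calls give was not tested. The mixed pairs include CR43810, which fell, beside CR43811, and CR45957, which rose, beside CR45958.

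The protein-coding partner of a CR gene called lower was seldom called, as was true of partners in general. Of 46 CR genes called lower that share exons with a tested partner, 3 had a partner called lower and 3 a partner called higher. Of 35 that touch an intron of a tested partner, 0 had it called lower and 1 higher. Of 88 with a nearest gene only, 11 had it called lower and 4 higher. Whatever the CR gene did, 5.93% of the 236 tested partners with shared exons, 1.56% of the 128 with the CR gene in or across an intron and 10.3% of the 351 nearest genes were called lower. By sign alone, CR gene and partner with shared exons changed alike in 81.0% of 21 same-strand pairs and 51.6% of 215 opposite-strand pairs. CR genes that share no exon with another gene gave like values, with 175 of 668 lower (26.2%), 31 higher and a median of −0.43, while those overlapping on the opposite strand had 65 of 289 lower (22.5%). The counting of the tables is not stated to use strand, so reads of an antisense CR gene and of its partner cannot be told apart with certainty.

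CR genes with an annotated intron were called lower more often than those with none. Of CR genes with 1 intron 99 of 280 (35.4%) were lower and 6 higher, and of those with 2 or more 37 of 109 (33.9%) were lower and 0 higher. Of CR genes without an intron 114 of 612 (18.6%) were lower and 37 (6.05%) higher. The CG genes stood in a similar order at lower shares, with 6.78% of 1254 genes with 1 intron, 7.87% of 3036 with 2 or more and 3.86% of 985 intronless genes called lower. Intronless CG genes were called higher in 10.3% of cases. Over all tested genes, even the intronless CR genes thus had a larger share lower than the CG genes of any intron class. Among testis-restricted genes, described below, that was not so.

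The CR genes on the study's list of retained introns were lower more often still. Of the 72 tested, 38 (52.8%) were called lower and 0 higher, 60 had a negative log2 change, and the median was −1.17 (range −3.77 to 0.87). Of the 319 other CR genes with an intron, 99 (31.0%) were lower and the median was −0.47, but 1830 introns of the list were read and 440 were not, so some of these may have a listed intron too. The list was drawn up by the study on these libraries and was read here only in part, so this is no independent evidence of a direction, and how retention and gene level share reads was not tested.

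Restriction to the testis went with a larger share of falls. Among testis-restricted CR genes 153 of 513 tested (29.8%) were lower and 18 (3.51%) higher, with a median log2 change of −0.56. Among CR genes expressed in both tissues 19 of 115 (16.5%) were lower, and the median was −0.09. Testis-restricted CG genes were lower in 21.1% of 432 cases, with a median of −0.36. When they were weighted to the CR levels, the share was 23.0% and the median −0.42. Of 3246 CG genes expressed in both tissues 3.82% were lower. The gap between CR and CG genes was narrower within testis-restricted genes than within genes expressed in both tissues. These classes were set, for CR and CG genes alike, by the WT libraries that also serve as controls of the contrast, so the counts are descriptions and were not tested.

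The intron difference was also seen within testis-restricted CR genes. Of those with 1 intron 65 of 137 (47.4%) were lower and of those with 2 or more 15 of 30 (50%), against 73 of 346 (21.1%) without an intron. For testis-restricted CG genes the shares were 27.7% of 112, 29.8% of 161 and 7.69% of 156. The intronless CR share of 21.1% was thus below the shares of CG genes with introns.

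**Figure D4:**
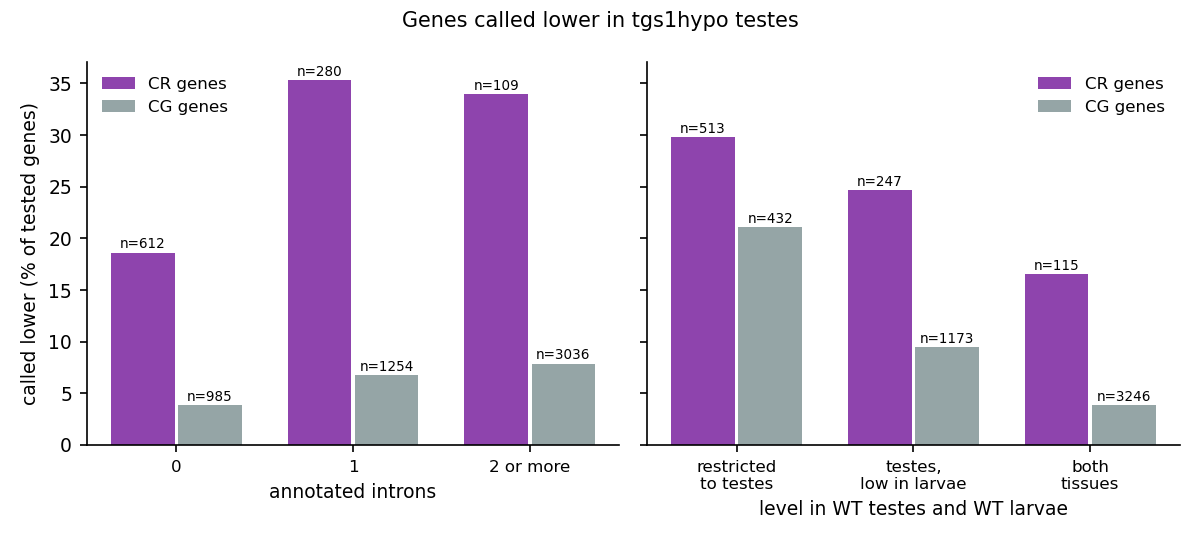
Share of tested CR genes (purple) and CG genes (grey) called lower in tgs1hypo testes, by the number of annotated introns (left) and by level in WT testes and WT larvae (right), with the number of genes above each bar. In the 6 pairs drawn the CR bar is the taller, with 35.4% against 6.78% for genes with 1 intron and 29.8% against 21.1% for testis-restricted genes. Genes under 1 FPKM in WT testes and genes not in both tables are not drawn on the right. The former passed the filter on level only where tgs1hypo was higher, so that 0 of them were called lower was fixed in advance.

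By kind of gene, 192 of 694 CR genes annotated as lncRNA (27.7%), 50 of 231 annotated as antisense RNA (21.6%) and 6 of 66 pseudogenes (9.09%) were called lower. On the 4 large autosomal arms 236 of 893 CR genes (26.4%) were lower and 35 (3.92%) higher. On the X chromosome 9 of 91 (9.89%) were lower and 8 (8.79%) higher, with a median of −0.11. CG genes of the X were also lower less often (2.82% of 885) than those of the autosomal arms (7.60% of 4370).

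All 8 Y-linked CR genes tested had a negative log2 change, as had 692 of all 1005, and 3 pseudogenes were called lower. All 4 Y-linked CG genes tested were called lower as well, with a median log2 change of −1.70. CR43176 had 8.12 and 7.56 FPKM in tgs1hypo testes and 19.4 and 19.8 FPKM in WT testes (log2 change −1.22, adjusted p = 0.00012). CR45772 had 5.36 and 5.44 FPKM in tgs1hypo testes and 19.7 and 16.8 FPKM in WT testes (log2 change −1.58, adjusted p = 9.0e-05), and CR45776 had 5.46 and 4.53 FPKM in tgs1hypo and 20.1 and 14.9 FPKM in WT (log2 change −1.62, adjusted p = 0.00029). CR43176 and CR45772 lie among the Mst77Y genes, a Y-linked multicopy family related to a sperm chromatin protein, whose nearest members were also called lower (−1.44 and −1.67). Reads could be divided among such copies, so the values of single members are uncertain.

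In larvae no CR gene was called, nor was any other of the 9545 genes tested (0%). By limma's unadjusted p under 0.05 there were 34 CR genes of 315 (10.8%, where 7.77% of all genes tested passed), 29 higher and 5 lower. Over all genes tested, 668 of those passing were higher and 74 lower. The smallest adjusted p of a CR gene was 0.198. The median log2 change was 0.20 for CR genes and 0.23 for CG genes (0.19 when weighted to the CR levels), against 0.25 for all genes tested. Both tgs1KO libraries were above both WT libraries for 111 CR genes (35.2%), where 43.1% of all genes tested showed this order. The positive medians depend on the scaling, since dividing each library by its median ratio put all genes at 0.01 and CR genes at −0.01, and quantile normalization gave 0.02 and −0.01.

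One larval library stood apart in genes of the fat body. Lsp2, a larval serum protein gene of the later larva, had 0.125 and 118 FPKM in tgs1KO larvae and 0.0575 and 0.0151 FPKM in WT larvae, and the sum of the 5 fat body markers was 154 FPKM in tgs1KO replicate 2 and under 0.32 FPKM in the other 3 libraries. Without that library 0 CR genes were called and 21 had an unadjusted p under 0.05, with a median log2 change of 0.15.

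The 5 CR genes with the smallest p in larvae were all higher in tgs1KO, the direction of most genes with a small p. The groups were apart in each of them, but a small p picks such genes. CR43855 lies within the span of the axon guidance gene Sema1a, on the opposite strand, and had 14.4 and 9.41 FPKM in tgs1KO larvae and 0.614 and 0.387 FPKM in WT larvae (log2 change 3.08 ± 0.27, limma adjusted p = 0.198). Sema1a has a row of its own and changed by 0.03. CR43855 was listed at 0 in 3 of the 4 testis libraries and at 0.521 FPKM in a tgs1hypo library.

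CR45607 had 7.35 and 4.81 FPKM in tgs1KO larvae and 0.441 and 0.279 FPKM in WT larvae (log2 change 2.36, adjusted p = 0.299). It lies 1608 bases from upd2, a cytokine gene of the JAK/STAT pathway that has no larval row. CR45756 had 5.41 and 4.15 FPKM in tgs1KO larvae and 0.621 and 0.240 FPKM in WT larvae (log2 change 2.02, adjusted p = 0.299), and shares exons with Ilp8, which encodes a relaxin-like peptide released by damaged discs and has no larval row either. For these 2 genes, and for CR45660 with the peroxidasin gene Pxn, the partner's transcription cannot be told apart from the value.

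CR45926, antisense to the nucleosome assembly gene Nap1, had 8.06 and 9.59 FPKM in tgs1KO larvae and 1.31 and 2.11 FPKM in WT larvae (log2 change 1.87, adjusted p = 0.299). Nap1 has a larval row and changed by 0.26. In testes CR45926 went the other way, with 5.28 and 5.39 FPKM in tgs1hypo and 8.16 and 9.70 FPKM in WT (log2 change −0.64), and the difference between the tissues was not tested. CR45660 had 12.4 and 8.83 FPKM in tgs1KO larvae and 2.75 and 4.10 FPKM in WT larvae (log2 change 1.39, adjusted p = 0.557).

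The most abundant CR gene of the larva, CR10102, is annotated as a pseudogene and lies 136 bases from Arc1, a capsid-forming gene without a larval row. It had 1178 and 2711 FPKM in tgs1KO larvae and 774 and 487 FPKM in WT larvae (log2 change 1.54 ± 0.48, limma adjusted p = 0.575). The groups did not overlap, but the tgs1KO libraries differed from each other by more than the WT libraries did. In testes, where Arc1 has its own row, CR10102 had 59.2 and 54.8 FPKM in tgs1hypo and 78.8 and 71.9 FPKM in WT (log2 change −0.40).

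**Figure D5:**
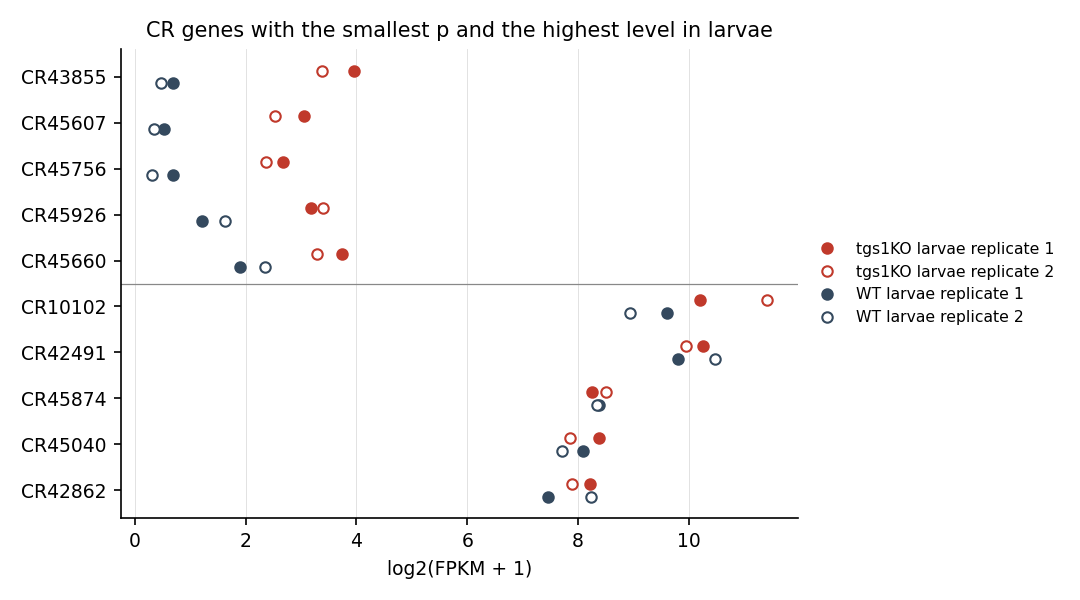
Level of the 5 CR genes with the smallest p (above the line) and the 5 highest CR genes (below it) in larvae, as log2(FPKM + 1), with tgs1KO libraries in red above WT libraries in dark blue and replicate 2 as open circles. The upper 5 were picked by their small p, which favours groups apart by genotype, as in CR43855 (14.4 and 9.41 against 0.614 and 0.387 FPKM). None of them passed the adjusted test. Of the lower 5 the groups are apart in CR10102 alone.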

How the data were processed

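RNA selected for poly(A) tails was sequenced from 8 samples, 2 libraries per group. The authors mapped filtered reads with HISAT2 to the FlyBase genome and deposited FPKM values per gene and library. featureCounts and DESeq2 are named by the study for gene expression, but the tool that wrote the FPKM is not given in the sources used here. Positions, introns and overlaps were taken from the BDGP6.54 annotation of Ensembl release 115 by FlyBase identifier.

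Values were analysed in R 4.3.3 with limma 3.58.1 and in Python 3.11.15 with pandas 2.3.3, as log2(FPKM + 1), each tissue apart, with genotype as the sole term and the mean-variance trend. limma was checked on simulated data. Because counts are not given, no count model was used, and the spread of 2 libraries sets the precision. With 2 against 2 libraries an exact permutation test cannot go below p = 0.333. A total of 1167 larval entries without a FlyBase gene were left out. CG genes were weighted to the CR genes' classes of mean FPKM (edges 1, 2, 5, 10 and 50).

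CR genes were named by rule: in testes the 8 largest rises and 8 largest falls among called genes whose groups do not overlap, the 5 highest in each tissue, the 5 smallest p in larvae, the 5 highest restricted to each tissue, those next to 1 FPKM, 4 on the list of retained introns and the called Y-linked genes. The members and lists were chosen with earlier results of these data known. Alternatives were another pseudocount, other filters, scalings and limits, no trend, a replicate block and leaving out each library.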

Additional observations from a re-analysis of the deposited data

How the results depend on the processing

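In testes the 251 falls and 43 rises became 226 to 269 and 49 to 52 when a library was left out, and 252 and 43 with the replicate block. The labels' replicate numbers name no shared batch, and with 2 pairs the correlation of deviations (0.13 in testes, −0.17 in larvae) does not settle a pairing. In larvae the replicate block and a crossed pairing, added after seeing the data, gave 0 calls. A pseudocount of 0.1 gave 73 rises and a CR median 0.59 below the CG genes of like level (difference −0.59), a minimum of 5 FPKM 23 rises and 101 falls, and an adjusted p alone 154 rises and 451 falls. Without a filter the CR median was −0.10 and its difference from CG genes −0.12. The CR median stayed between −0.47 and −0.35 and the difference between −0.56 and −0.38 when a library was left out. In larvae the CR median reversed to −0.014 under median-of-ratios scaling and −0.010 under quantile normalization, and lay between 0.14 and 0.27 without a library, with the difference between −0.019 and 0.033.

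A mean of 2 FPKM was reached by 197 CR genes in larvae, and 1 FPKM by 308 to 314 in larvae and 962 to 1030 in testes without a library. A minimum of 5 FPKM left 244 CR genes restricted to testes and 13 to larvae, a limit of 1 FPKM in the other tissue gave 135 restricted to larvae, and 18 had a partner with its own larval row. Without a library 545 to 580 were restricted to testes and 28 to 35 to larvae. Of the CR genes named, CR44493 and CR45660 lost their call in testes under at least 1 alternative. The counts behind values are unknown, which limits what can be said of genes near 1 FPKM.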
